A study of Mus musculus with 4 samples.

Results

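The mitochondrial ribosomal protein genes were taken as every gene whose name on the array starts with Mrpl or Mrps directly followed by a digit. This gave 76 genes of the 27398 gene names on the array, 47 of the large subunit (Mrpl) and 29 of the small subunit (Mrps). They were read by 126 probes, of which 119 could be tested, 72 for the large and 47 for the small subunit. The other 7 probes were too close to background, 1 each for Mrpl3, Mrpl11, Mrpl41, Mrpl47 and Mrpl52 and 2 for Mrpl35, and each of these genes had another probe that was tested. To be tested, a probe had to stand well above background in one dye channel on at least 3 of the 4 arrays, and every one of the 76 genes is represented.

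Mitochondria keep their own ribosome, the mitoribosome, which translates the few messages of mitochondrial DNA, all of them for membrane proteins of the respiratory chain and ATP synthase. Its RNA comes from mitochondrial DNA, while its proteins are encoded in the nucleus, made in the cytoplasm and imported. Some of these proteins descend from bacterial ribosomal proteins and others exist only in mitochondria. Muscle that differentiates builds up respiratory capacity, for which mitoribosomes and nuclear-encoded respiratory chain subunits are both needed.

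The cells were C2C12, an established mouse myoblast line that forms myotubes when serum is withdrawn. Cultures at 80% confluence were differentiated for 6 days, either untreated or with 200 ng/ml recombinant human follistatin 288 added every 24 h. Follistatin is a secreted protein that binds and blocks activins and myostatin. For the differentiation medium, which both groups share, the labels disagree on the horse serum, with 2% in one field and 10% in another. Each of 4 replicates, called biological by the labels, was 1 two-colour Agilent array that carried the treated RNA in Cy3 and the untreated in Cy5. The labels speak of dye swaps but give the same orientation for all 4 arrays, so an effect of the dye on a given probe and an effect of follistatin cannot be told apart. All values are log2 ratios of follistatin-treated over untreated cells, and 0 means equal signals.

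Replicates 1, 2 and 3 were on slide 1 and replicate 4 was on slide 2, so slide and replicate 4 cannot be told apart. Of the non-control spots, 61.1% to 65.2% were well above background in the treated channel and 61.4% to 69.4% in the untreated channel, and 0 spots were saturated. Precision is limited by the number of arrays. The 12 muscle markers examined were all well above background in both channels of all arrays. Of 16 markers of other cell types, 7 were, namely Cd68, Hbb-b1, Krt8, Cdh1, Tubb3, Bglap and Sox9. Another 6, among them Ptprc, Pecam1 and Epcam, were not well above background on any array. Markers of blood and epithelial cells were thus found on both sides. The median ratio of the muscle markers was 0.52, -0.039, -0.35 and -0.40 on replicates 1 to 4, and that of the tested markers of other cell types was -0.41, -0.35, -0.21 and 0.0020, so both lists shifted between arrays. Their part in the results was not tested. In bulk RNA, a change in the number of cells of a type and a change of RNA in each cell cannot be told apart.

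As a group, the mitochondrial ribosomal proteins were neither clearly higher nor clearly lower in follistatin-treated cells. Their median log2 ratio was -0.0048 on replicate 1, -0.13 on replicate 2, -0.12 on replicate 3 and 0.13 on replicate 4. Replicates 2 and 3 were thus below 0, replicate 4 was above 0 and replicate 1 lay at 0. All other tested probes had medians of -0.018, 0.019, 0.031 and -0.0088 on the same arrays. The members' median therefore differed from that of the other probes by 0.013, -0.15, -0.15 and 0.14, with a mean of -0.035 ± 0.14 (SD, n = 4), which is smaller than the spread between arrays. On slide 1 alone that mean was -0.093 ± 0.092 (SD over 3 arrays), and the single array of slide 2 gave 0.14. Of the 119 probes, 59, 50, 47 and 78 were above 0 on replicates 1 to 4.

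The large and the small subunit had similar medians on each array. The median of the 72 large-subunit probes was -0.00085 on replicate 1, -0.12 on replicate 2, -0.11 on replicate 3 and 0.13 on replicate 4. For the 47 small-subunit probes the medians were -0.041, -0.17, -0.12 and 0.13. The large minus the small subunit was 0.040, 0.055, 0.011 and -0.00084, with a mean of 0.026 ± 0.026 (SD, n = 4). This difference turned to -0.023 ± 0.064 when each gene was read by its brightest probe alone. It was 0.018 when Mrps18a and Mrps30, which structures place in the large subunit, were counted there, and 0.032 without Mrps36, whose product is also placed in the 2-oxoglutarate dehydrogenase complex. Against all other probes, the large subunit differed by -0.030 ± 0.14 and the small subunit by -0.056 ± 0.15 (SD, n = 4).

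**Figure D1:**
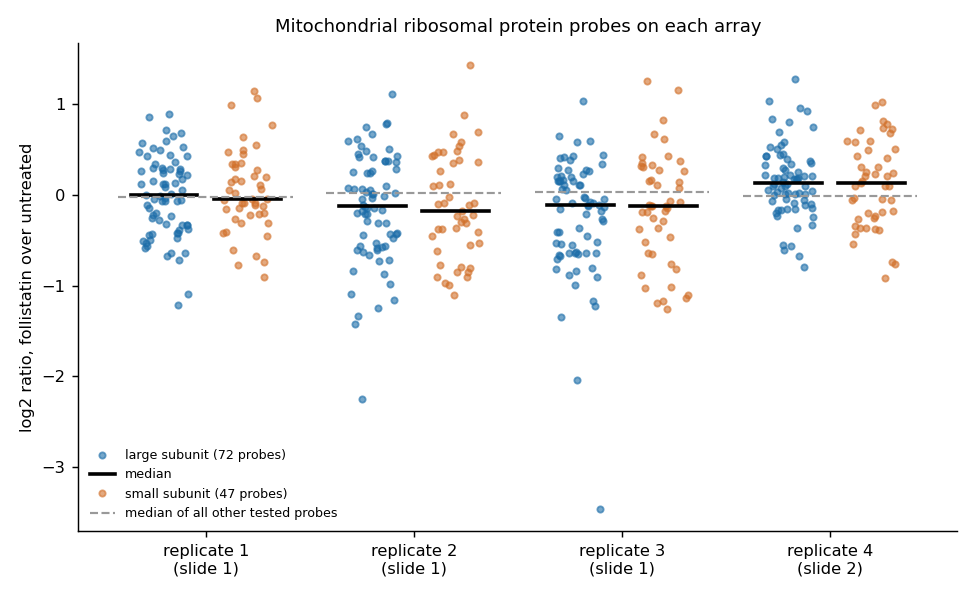
Log2 ratios of follistatin-treated over untreated cells for the 119 tested mitochondrial ribosomal protein probes on each of the 4 arrays, large subunit in blue and small subunit in orange. Black lines mark subunit medians, and dashed lines mark the median of all other tested probes. On replicates 2 and 3 both subunit medians lie below the dashed line and on replicate 4 both lie above it, at 0.13.

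No single member passed the test. With limma, 0 of the 119 member probes reached an adjusted p under 0.05, against 2 of all 27017 tested probes (0.0074%). The smallest adjusted p among members was 0.107, shared by a probe of Mrps2 and a probe of Mrpl45. At an unadjusted limma p under 0.05, 10 member probes were higher (8.40%, against 9.93% of all tested probes) and 11 were lower (9.24%, against 10.8%). A mean over 1.6-fold, the minimum in the methods, was found for 3 higher probes (2.52%, against 6.48%) and 7 lower probes (5.88%, against 9.33%). Above 0 on all 4 arrays were 22 member probes (18.5%, against 13.7%), and below 0 on all 4 were 17 (14.3%, against 14.5%). The methods' t-test on separate channels called 0 members after Benjamini-Hochberg adjustment. The shares past the unadjusted limma p lay close to those of all probes in both directions. When limma estimated a weight for each array, 31 member probes passed (26.1%, 8 higher and 23 lower) and 7939 of all tested probes did (29.4%), with weights of 2.54 and 1.89 on replicates 2 and 3 and of 0.479 and 0.433 on replicates 1 and 4.

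Member ratios were also less widely spread than those of other probes. The SD across member probes was 0.45, 0.60, 0.64 and 0.43 on replicates 1 to 4, where that across all other tested probes was 0.69, 0.74, 0.90 and 0.55. The SD of the means over arrays was 0.39 for members and 0.51 for the others. The related gene lists described below also lay under 0.51, from 0.19 for mitochondrial translation factors to 0.46 for mitochondrial aminoacyl-tRNA synthetases. It was 0.36 for respiratory chain subunits and 0.41 for cytoplasmic ribosomal proteins, so the narrower spread was not particular to the members. No test was made of these differences.

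The members are described by subunit, first the higher and then the lower ratios. Mrpl45, a large-subunit protein found only in mitochondria that sits near the exit of the nascent chain tunnel, had log2 ratios of 0.86, 0.75, 0.65 and 0.85 on its probe A_51_P324592. All 4 arrays were well above 0, and the mean was 0.78 (SE 0.16, limma adjusted p = 0.107). Mrpl50, also without a bacterial counterpart, had ratios of 0.69, 1.11, 1.04 and 0.28 on A_52_P432780, and its mean was also 0.78 (SE 0.20, limma adjusted p = 0.131). Its second probe gave 0.25 with all arrays above 0, between 0.13 and 0.45. Mrpl49 was read at 0.47, 0.38, 0.42 and 0.93 by A_52_P484691, higher on replicate 4 than on the other arrays. Mrpl43 had 0.65, 0.43, 0.26 and 0.34 on A_52_P374351, with a mean of 0.42. Its other, brighter probe A_51_P255441 changed sign between arrays, with 0.26, -0.20, -0.17 and 0.44 and a mean of 0.082. Mrpl47, the counterpart of a bacterial large-subunit protein, followed with 0.54, 0.67, 0.43 and 0.0062.

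On the low side of the large subunit, Mrpl44, whose protein has a ribonuclease III fold, had ratios of -0.72, -0.72, -0.71 and -0.33 on A_52_P198009. These were all below 0 with a mean of -0.62 (SE 0.17, limma adjusted p = 0.139), but its other probes averaged -0.22 and -0.083 and each crossed 0. Mrpl2, next to the peptidyl transferase centre, had -0.28, -0.61, -0.99 and -0.56, with a mean of -0.61. Mrpl16 was lower on every array, from -0.80 on replicate 3 to -0.048 on replicate 4. Mrpl40 was below 0 on every array of A_51_P420630, between -0.67 and -0.098, and its other 2 probes lay at -0.16 and 0.026. Mrpl3, also next to the peptidyl transferase centre, averaged 0.27, 0.19 and -0.17 on its 3 tested probes. In the stalk where translation factors bind, Mrpl11 had 0.35, -0.21, -0.16 and 0.43. Mrpl12, the stalk protein that also binds the mitochondrial RNA polymerase, had 0.49, 0.052, -0.030 and 0.10. Neither stalk protein kept one sign across the arrays.

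In the small subunit, 3 genes had 2 probes each that gave like values and one sign on all arrays. Mrps18c, the counterpart of a bacterial small-subunit protein, had -0.74, -0.80, -1.11 and -0.23 on A_51_P108478 and -0.61, -0.81, -1.02 and -0.029 on A_51_P108484. Its probes agreed closely, with means of -0.72 and -0.62 (limma adjusted p = 0.140 and 0.186), and both were nearest to 0 on replicate 4. Mrps23, found only in mitochondria, had 1.07, 0.47, 0.36 and 0.24 on A_51_P338542 and 0.997, 0.44, 0.31 and 0.099 on A_52_P5420. Both probes were higher on all arrays and highest on replicate 1. Their mm9 positions overlap from 88023381 to 88023401, so the readings may share bases. Mrps6 was read at 0.18, 0.49, 0.34 and 0.82, and its second probe at 0.11, 0.36, 0.27 and 0.78, so that both were highest on replicate 4. Mrps27, a pentatricopeptide repeat protein, had 1.15, 0.43, 0.38 and 0.16 on its single probe.

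Mrps22 had ratios of -0.77, -0.55, -0.89 and -0.19, and it has 1 tested probe. Mrps2 had -0.90, -0.90, -1.20 and -0.55 on A_52_P405955, the lowest mean of the small subunit at -0.89 (SE 0.18, limma adjusted p = 0.107). The decoding centre protein Mrps12 had -0.041, -0.85, -0.46 and 0.50 and so changed sign between arrays. The paralogues of Mrps18c differed from it: Mrps18a had 0.023, 0.54, 0.32 and -0.049, and Mrps18b had 0.068, 0.12, 0.16 and -0.36. Mrps16 had -0.20, -1.10, -1.02 and 0.23, Mrps34 -0.12, -0.36, -0.64 and 0.25, and Mrps30 -0.20, -0.26, -0.52 and -0.26. Of these, Mrps30 alone was below 0 on all 4 arrays.

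**Figure D2:**
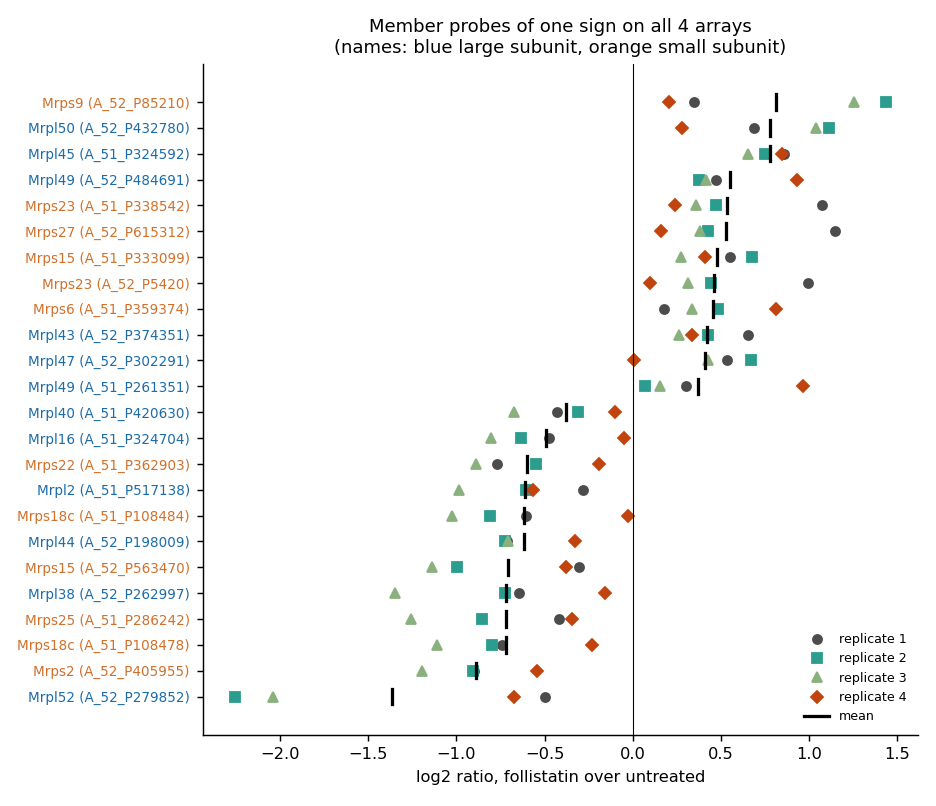
Log2 ratios on each array for the 6 highest and 6 lowest probes per subunit among those of one sign on all 4 arrays, with the mean as a black bar. The choice fixes that the points do not cross 0. Mrpl45 spans 0.65 to 0.86, while Mrpl52 spans -2.26 to -0.50, with replicates 2 and 3 lowest.

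Different probes of one gene often gave different answers. Of the 31 genes with several tested probes, 19 had probes whose means differ in sign (61.3%), where this held for 3074 of 6202 other genes (49.6%). The median distance between the highest and the lowest probe of a gene was 0.41 for members and 0.44 for the others. For Mrpl45, the higher probe was 0.93 ± 0.31 (SD, n = 4) above the lower one, which had -0.51, 0.029, -0.043 and -0.087. For Mrpl49, A_52_P485433 had -0.23, -0.66, -0.89 and 0.43 where the other 2 probes were above 0 on every array. For Mrps25, one probe had -0.42, -0.85, -1.26 and -0.35 and the other -0.26, -0.11, 0.14 and 0.72. For Mrpl38, the Ensembl probe had -0.64, -0.72, -1.35 and -0.16, while its RefSeq probes averaged 0.12 and 0.18. For Mrps5, with 4 probes, the means lay between -0.14 and 0.24, and A_52_P147870 alone ran from -1.17 on replicate 3 to 1.03 on replicate 4. For Mrps36, the probes had -0.077 and 0.20. For Mrps2, the low probe stood beside 2 others with means of -0.25 and 0.24. The means of a gene's probes lay at most 0.10 apart for Mrps18c, Mrps23, Mrps6, Mrps26, Mrps33 and Mrps7. Of these, Mrps7 agreed only in the mean, with differences from -0.33 to 0.67 on single arrays. Some probes of Mrps23 and of Mrps33 overlap in position.

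Some of the disagreement went with the transcript a probe was designed on, a pattern noticed after the values were seen. Of the 126 probes, 113 target a RefSeq transcript, 7 an Ensembl transcript and 6 a cDNA clone or expressed sequence tag. In 10 genes both a RefSeq probe and another kind were tested, and in 7 of them the other kind was lower in mean, by a median over the 10 genes of -0.83. Among all other genes this was so for 1445 of 2069 (69.8%), with a median of -0.31. The other-kind probes of Mrpl27 and Mrpl33, both among the lower ones, passed the detection filter through the untreated channel only. Passing in that way favours a low ratio. The other kind was lower on all 4 arrays for Mrpl52, by -1.43 ± 0.67, for Mrps15, by -1.18 ± 0.43, and for Mrps9, by -1.05 ± 0.24 (SD, n = 4). These are 3 of the 10 genes, and among all other genes 614 of 2069 (29.7%) were lower on all arrays, so the share was like that of the whole array. Member probes of the other kind were mostly also dimmer, so probe target and brightness cannot be told apart. The treated signal on replicate 1 was 143 for the other kind against 6729 for RefSeq in Mrps15, and 1462 against 1722 in Mrpl47. With the members restricted to RefSeq probes, but not the other probes, the members' median minus that of other probes was -0.012 ± 0.16.

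Sequences are shown for Mrps9 and Mrpl52, whose probes differ on all arrays, to show which stretch of the gene each signal was read from. The first 30 of the 60 bases are given in lower case as the array's annotation writes them, with mm9 positions of the whole probe on the plus strand.
Mrps9 RefSeq probe A_51_P253633 (chr1:42956365-42960169): tctaatttactttcccatcacacaggacag
Mrps9 clone probe A_52_P317748 (chr1:42959661-42959720): agttatgttcactgtgattttagaaacttt
Mrpl52 RefSeq probe A_52_P315111 (chr14:55048507-55048566): aggaacatgatctcaaacctaaagggactt
Mrpl52 clone probe A_52_P279852 (chr14:55046463-55046522): agaaggataaaactctcacatgtgtggtga

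The printed RefSeq probe of Mrps9 covers 3805 bases of the genome with 60 bases of sequence, so it crosses at least 1 splice junction. The clone probe of Mrps9 lies inside this span, 449 bases from its nearer end. By these positions, it lies in sequence that the spliced RefSeq message skips. For Mrps9, the 2 RefSeq probes averaged 0.81 and 0.53, the former with 0.35, 1.44, 1.26 and 0.21, and the clone probe had -0.67, -0.22, 0.12 and -0.74. Processed signals of the probe in skipped sequence were 100.2 to 213, well above background in both channels of all arrays. For Mrps15, the RefSeq probe had 0.55, 0.68, 0.27 and 0.41 and the Ensembl probe -0.31, -0.996, -1.14 and -0.38, so the values of these probes did not overlap. For Mrpl52, the clone probe had -0.50, -2.26, -2.04 and -0.67, and the RefSeq probe 0.016, -0.42, -0.025 and 0.70. The lowest Mrpl27 value, -3.47 on replicate 3, came from a clone probe that was not well above background in the treated channel of replicates 2 and 3, while its RefSeq probe had 0.22, 0.067, 0.20 and 0.35.

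**Figure D3:**
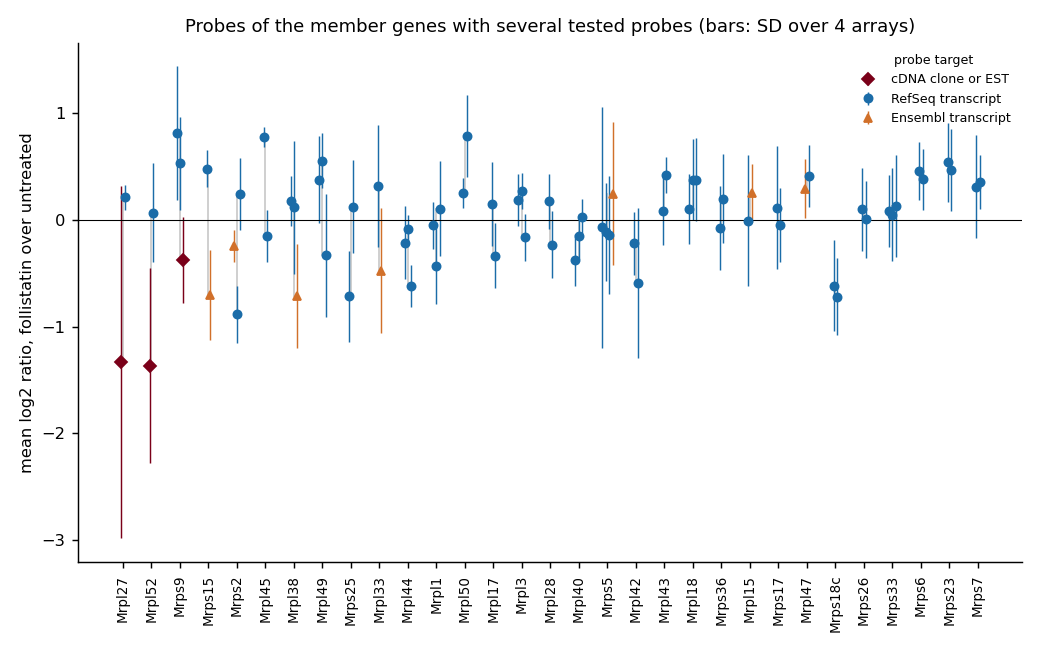
Mean log2 ratio over the 4 arrays of each tested probe for the 31 member genes with several probes, sorted by the distance between their highest and lowest probe. Error bars are SD over arrays, and the symbol shows the kind of transcript the probe targets. The largest distances, 1.54 for Mrpl27 and 1.43 for Mrpl52, are between a clone probe and a RefSeq probe. The Mrpl27 distance had an SD of 1.59 over arrays. Its clone probe was near background and passed the detection filter through the untreated channel only.

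The disagreement between arrays had a pattern of its own, also noticed after the values were seen. Below 0 on replicates 2 and 3 and above 0 on replicate 4 were 44 of the 119 member probes (37.0%), where 17.4% of all other tested probes had that order. The reverse order was found for 13 member probes (10.9%) and 19.8% of the others. Mrpl34, the widest in range of the large subunit after the dim Mrpl27 probe, had 0.29, -0.99, -0.55 and 1.28. Mrps21 had 0.15, -0.97, -0.76 and 0.99. Mrpl36, Mrpl14, Mrpl53 and Mrpl21, chosen after their values were seen, followed the same order, with replicate 2 between -0.87 and -0.57 and replicate 4 between 0.38 and 0.81. The order was found for 28 of 72 large-subunit and 16 of 47 small-subunit probes.

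Over the 119 probes, which share arrays and dyes, r was 0.86 between replicates 2 and 3, and it was 0.82 over all other tested probes. Replicate 1 correlated with replicates 2, 3 and 4 at 0.41, 0.50 and 0.29 for members and at 0.23, 0.32 and 0.062 for the others. Replicate 4 correlated with replicates 2 and 3 at -0.062 and 0.082 for members and at 0.038 and 0.19 for the others. All p-values treat these similar arrays as separate samples, on the labels' word that they are biological replicates. Without replicate 4, 43 member probes were below 0 on the remaining 3 arrays (36.1%, against 24.9% of other probes) and 24 were lower at an unadjusted limma p under 0.05 (20.2%, against 14.1%). Without replicate 4, 10 were higher at that p (8.40%, against 14.3%), and 31 were above 0 on all 3 arrays (26.1%, against 26.0%). Without replicate 1, 5 were higher (4.20%, against 9.43%) and 10 lower (8.40%, against 10.7%). Without replicate 2, 3 were higher (2.52%, against 4.83%) and 3 lower (2.52%, against 6.93%). Without replicate 3, 2 were higher (1.68%, against 3.89%) and 3 lower (2.52%, against 5.66%).

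On replicate 1, the base composition of a probe went with its ratio. Member probes with up to 40.6% G and C had a median of -0.30 on that array, those above 45.0% had 0.29, and those between had 0.057. The rank correlation with G and C content was 0.33 for members and 0.29 for all other probes on replicate 1. On replicates 2 to 4 it was between -0.013 and 0.050 for members, and -0.13, -0.031 and -0.015 for all other probes. Other probes with up to 40.6% G and C had medians of 0.11 and 0.074 on replicates 2 and 3, and those above 45.0% had -0.18 and -0.11. The part of base composition in the ratios was not tested.

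Genes around the mitoribosome were described in the same way, by lists of their members. Conserved members (68 probes) and members found only in mitochondria (47 probes) had like medians, which differed from that of all other probes by -0.027 ± 0.11 and -0.027 ± 0.14 (SD, n = 4). Mitoribosomal proteins under other names, such as Dap3 and Ict1, had 7 genes measured of 9 and medians of -0.34, -0.45, -0.40 and -0.026. They were lower than the other probes by a mean of -0.31 ± 0.20, with 7 of 13 probes below 0 in mean and 5 below 0 on all arrays (38.5%, against 14.5% of all tested probes). This difference depended on the processing. It was -0.12 ± 0.076 after normexp and loess, -0.28 by brightest probe and -0.37 with no detection filter. Nuclear-encoded subunits of the respiratory chain and ATP synthase (112 probes of 79 genes) showed the same order of arrays as the mitoribosome and a wider swing, with medians of 0.050, -0.43, -0.61 and 0.25. The order low on replicates 2 and 3 and high on replicate 4 was found in 61 of these probes (54.5%). Cytoplasmic ribosomal proteins (136 probes of 83 genes) had 0.13, -0.14, -0.075 and 0.18, and 36.8% of the probes had that order. The share among mitoribosomal probes, 37.0%, thus lay near that of the cytoplasmic ribosomal proteins and below that of the respiratory chain.

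Genes that serve mitochondrial translation without being part of the ribosome were described next. Mitochondrial translation factors (20 probes, 13 of 14 genes measured) had medians of -0.076, 0.29, 0.27 and 0.21. Mitochondrial aminoacyl-tRNA synthetases, which charge the transfer RNAs (30 probes, 22 of 26 genes), had 0.25, 0.24, 0.29 and -0.061. Factors that assemble the mitoribosome (35 probes, 26 of 33 genes) had 0.19, 0.0062, 0.20 and 0.0030. Genes of mitochondrial DNA upkeep and transcription (26 probes, 15 of 24 genes) had -0.043, 0.33, 0.24 and -0.045. Regulators of mitochondrial biogenesis (28 probes, 12 of 13 genes) had 0.16, 0.18, 0.31 and -0.11. With limma, 0 probes of any of these lists passed the adjusted threshold. At an unadjusted limma p under 0.05, against 9.93% of all tested probes higher and 10.8% lower, 0 translation factor probes were higher and 0 lower, and 4 synthetase probes were higher (13.3%) and 1 lower (3.33%). Of the respiratory chain probes, 6 were higher (5.36%) and 8 lower (7.14%). Of the 136 cytoplasmic ribosomal protein probes, 19 were higher and 6 lower (4.41%).

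**Figure D4:**
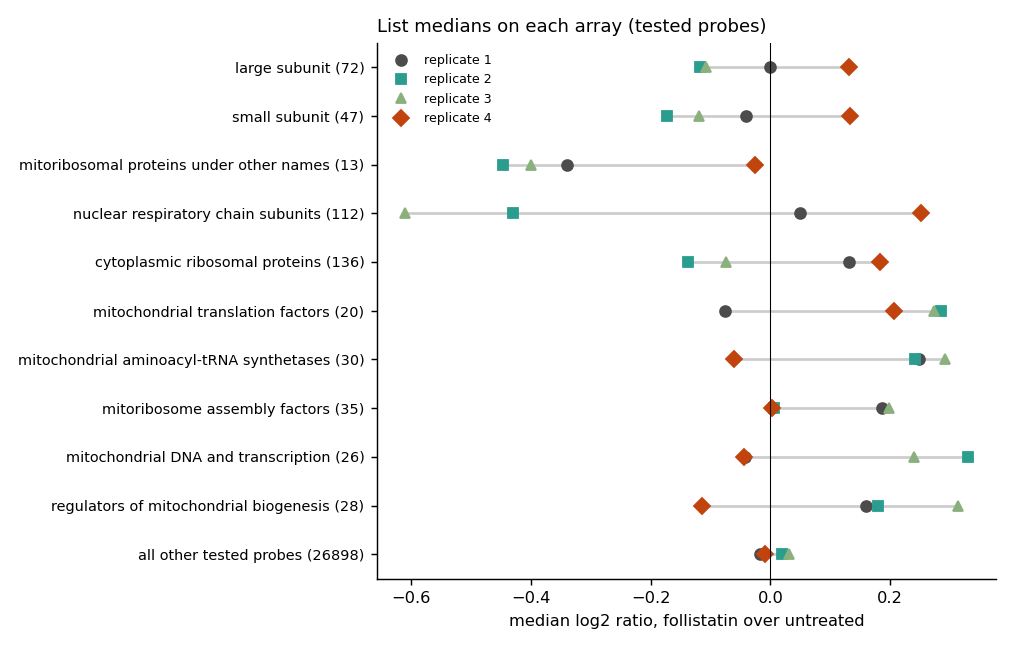
Median log2 ratio on each array for the mitoribosomal subunits, 8 related gene lists and all other tested probes, with the number of tested probes in brackets. Both subunits, the respiratory chain and the cytoplasmic ribosomal proteins have replicates 2 and 3 on the left and replicate 4 furthest right. The same holds for mitoribosomal proteins under other names. Replicates 2 and 3 are furthest right for translation factors, mitochondrial DNA and transcription, and regulators of mitochondrial biogenesis.

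Promoters of the members share sequence features that the choice of genes did not use. RefSeq windows (GRCm38.p6) of 300 bases, from 250 before to 50 after the gene start, were matched for 67 of the 76 genes. The ETS-type motif CCGGAAG, the core bound by the factor GABP, was found on either strand in 24 of them (35.8%), against 9.86% of 26958 other genes. The NRF1-type motif GCGCNTGCGC was found in 12 (17.9%, against 5.16%), and the YY1-type motif AAGATGGC in 12 (17.9%, against 3.15%). GABP, NRF1 and YY1 are known activators of nuclear genes for mitochondria. At least 1 of the motifs was present in 41 of the 67 genes, against 16.3% of the others, and the median G and C content was 58.0% for members and 53.3% for the others. The median of the genes' mean log2 ratios was 0.0036 with the ETS-type motif and -0.11 without it, -0.12 with the NRF1-type motif and -0.033 without it, and -0.17 with the YY1-type motif and -0.033 without it. These are descriptions of letters in a window, with no test.

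The 250 bases before the start are printed for Mrpl45 and Mrps18c, with the motifs in capitals. Mrpl45 has the higher probe of smallest limma p, but its other, brighter probe averaged -0.15. Mrps18c is the lower gene whose probes agreed. Mrpl45 holds NRF1-type motifs and Mrps18c an ETS-type motif in these bases. Over the matched genes, the medians given above ran the other way, lower with the NRF1-type and higher with the ETS-type motif. A link between motif and ratio was not tested.
Mrpl45 (NRF1-type motifs on the opposite strand; GRCm38.p6, chr11:97315466-97315715, plus strand): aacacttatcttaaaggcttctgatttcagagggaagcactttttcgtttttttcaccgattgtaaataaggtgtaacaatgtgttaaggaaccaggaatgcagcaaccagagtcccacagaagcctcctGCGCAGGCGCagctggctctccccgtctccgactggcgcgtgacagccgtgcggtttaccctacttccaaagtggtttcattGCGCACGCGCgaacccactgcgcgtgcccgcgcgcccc
Mrps18c (ETS-type motif on the opposite strand; GRCm38.p6, chr5:100798509-100798758, plus strand): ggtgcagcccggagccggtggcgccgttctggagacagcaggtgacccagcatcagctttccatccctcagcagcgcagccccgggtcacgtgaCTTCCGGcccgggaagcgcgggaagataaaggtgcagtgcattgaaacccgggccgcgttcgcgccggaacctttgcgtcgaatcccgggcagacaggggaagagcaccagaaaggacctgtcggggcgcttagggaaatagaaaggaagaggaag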

How the data were processed

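The members and gene lists were chosen with earlier results of these data known. Spot intensity was deposited by the authors, as measured with Feature Extraction (Agilent; 10.7.3.1 in the submitters' processing notes, and 10.10.1.1 for replicate 4 per the file headers). That software had subtracted background from the deposited processed intensity and balanced the dyes array by array. Its deposited log10 ratio, Cy5 over Cy3, served only to check direction. The authors' table of log2 values matched log2 of the processed Cy3 over Cy5 intensity of each array (slope 1.00, r = 1.00), with no further centring, and its medians were -0.16, 0.17, 0.13 and 0.11.

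Here, outlier spots and controls were left out, spots of a probe averaged and log2 ratios taken without centring (tested-probe medians -0.018 to 0.030). Of 41174 probes, 27017 were tested. limma 3.58.1 (lmFit, eBayes; statmod 1.5.0, data.table version 1.17.8, R 4.3.3) tested each mean against 0, with Benjamini-Hochberg adjustment over all tested probes and a threshold of 0.05. All adjusted p-values are limma's. The fits were tested on simulated data. No pair of arrays had identical ratios. Lists were described by counts and medians, with no test.

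The text names, per subunit, the 6 highest and 6 lowest probes of one sign on all arrays, the 3 further ones of smallest p, the 3 widest in range, a fixed set of genes (Mrpl3, Mrpl11, Mrpl12, Mrpl44, Mrps12, Mrps16, Mrps18a, Mrps18b, Mrps18c, Mrps22, Mrps30, Mrps34, Mrps36) and every probe of a gene whose probes differ in sign, 75 probes in all, of which the text gives part. Probe positions are those of the replicate 4 annotation, in mm9. Alternatives were normexp with an offset of 50 and loess (span 0.3), centring, the authors' table, other filters, the brightest probe per gene, a slide block, array weights, replicates 2 and 3 averaged, each replicate left out, the methods' t-test and separate channels with the array as a block. A further alternative, chosen after seeing the data, restricted the members, but not the other probes, to RefSeq probes.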

Additional observations from a re-analysis of the deposited data

Results flagged for a closer look

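On 4 arrays, a value was singled out where its distance to the nearest other array, divided by the whole range, exceeded Dixon's critical value, which chance passes in about 1 of 20 groups. Of 92 results examined, 5 were singled out. The median of the mitochondrial aminoacyl-tRNA synthetases was -0.061 on replicate 4 and 0.24 to 0.29 on the other arrays. Mrpl44 probe A_52_P198009 had -0.33 on replicate 4 and -0.72 to -0.71 elsewhere. Mrpl44 probe A_51_P471940 had 0.11 on replicate 3 and -0.16 to -0.13 elsewhere. Mrpl49 probe A_52_P484691 had 0.93 on replicate 4 and 0.38 to 0.47 elsewhere. Mrps36 probe A_51_P190690 had 0.51 on replicate 4 and -0.31 to -0.22 elsewhere.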

How the results depend on the processing

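The members' median minus that of other probes, and the same for either subunit, moved by less than the SD over arrays under every alternative run, and 0 member probes were called in any but the array weights. The number of members called was 31 with estimated array weights, and all probes called were 7939, with 23 members higher (19.3%, others 23.4%) and 32 lower (26.9%, others 22.3%) at an unadjusted p under 0.05. All probes called were 0 after normexp and loess, with detection in both channels on all arrays, with replicates 2 and 3 averaged and on leaving out any replicate (0 to 0), and 6 with separate channels. The cause was not tested. The large minus the small subunit was 0.059 with no detection filter, 0.052 with detection in both channels and -0.023 by brightest probe. At an unadjusted p under 0.05, members higher were 6 with no detection filter (4.76%, other probes 7.60%), 3 by brightest probe (3.95%, others 9.21%), 5 with the slide block (4.20%, others 7.10%) and 2 to 10 on leaving out a replicate. After normexp and loess 15 were higher (12.6%, others 8.55%) and 18 lower (15.1%, others 10.5%), and by the methods' t-test 19 of 119 higher (others 9.98%) and 14 lower (11.8%, others 9.15%). With replicates 2 and 3 averaged, 3 were higher (2.52%, others 4.70%) and 4 lower (3.36%, others 6.70%). Members lower were 5 by brightest probe (6.58%, others 11.5%) and 3 to 24 on leaving out a replicate. Members of one sign on all arrays were 11 higher and 10 lower of 76 by brightest probe. On leaving out a replicate, 24 to 31 were above 0 and 18 to 43 below 0 on the remaining 3 arrays. The highest counts, 31 (26.1%, others 26.0%) and 43 (36.1%, others 24.9%), were those without replicate 4. For the other counts of one sign here, the share of other probes is not given, so they are not read as a result about members.

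Of 1086 values of named probes under alternatives, 39 changed sign, for 21 probes within 0.48 of 0. After normexp and loess, Mrpl15 A_52_P547478 had 0.017 and Mrpl33 A_52_P336091 had 0.017. With array weights, Mrpl1 A_52_P86073 had 0.0057, Mrpl11 -0.089, Mrpl15 A_52_P547478 0.34, Mrpl17 A_52_P71249 -0.024, Mrpl34 -0.53, Mrpl40 A_51_P278532 -0.042, Mrpl52 A_52_P315111 -0.15, Mrps17 A_51_P121397 -0.091, Mrps18b 0.089 and Mrps36 A_51_P190697 -0.019. With replicates 2 and 3 averaged, Mrps17 A_52_P657338 had 0.024, Mrps21 0.092 and Mrps5 A_52_P147870 0.25. Leaving out a replicate gave ranges of -0.031 to 0.32 for Mrpl1 A_52_P304028, -0.15 to 0.018 for Mrpl1 A_52_P86073, -0.0062 to 0.21 for Mrpl11, -0.22 to 0.21 for Mrpl15 A_52_P547478, -0.046 to 0.23 for Mrpl17 A_52_P71249, -0.41 to 0.34 for Mrpl34, -0.032 to 0.42 for Mrpl38 A_52_P548227, -0.025 to 0.10 for Mrpl40 A_51_P278532 and -0.14 to 0.23 for Mrpl52 A_52_P315111. For the small subunit they were -0.077 to 0.36 for Mrps17 A_51_P121397, -0.21 to 0.056 for Mrps17 A_52_P657338, -0.058 to 0.11 for Mrps18b, -0.53 to 0.13 for Mrps21, -0.077 to 0.25 for Mrps25 A_51_P121325, -0.27 to 0.00027 for Mrps36 A_51_P190690, -0.26 to 0.094 for Mrps5 A_51_P493270, -0.43 to 0.30 for Mrps5 A_52_P147870, -0.062 to 0.46 for Mrps5 A_52_P333241 and -0.30 to 0.12 for Mrps5 A_52_P650288. Signal over background limits the dimmest probes, such as the clone probe of Mrpl27.

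The reported fit is itself paired by array, since each ratio sets the treated against the untreated channel of 1 array.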
